A study of Mus musculus with 4 samples.

Results

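The CCAAT/enhancer binding proteins (C/EBPs) form a small family of basic leucine zipper transcription factors, and 5 of their genes were followed here between an empty vector line and a line depleted of the glucocorticoid receptor (GR). The members, Cebpa, Cebpb, Cebpd, Cebpg and Ddit3, were found as the probes that carry these gene names in the array annotation. They made up 9 of 41174 probes that were not controls, on an array with 28146 distinct gene names. They were chosen with their difference between the lines already known, so their values are a description: no p is given for them, and a count of those past a threshold stands only beside the share of all probes.

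C/EBPs bind DNA as pairs joined through the leucine zipper, with themselves or with one another, and some also pair with other bZIP factors such as ATF4. C/EBPα, C/EBPβ and C/EBPδ activate transcription, whereas C/EBPγ and the Ddit3 product CHOP lack a strong activation domain and act largely as partners. In the mammary gland C/EBPβ is needed for the ductal and alveolar programme, C/EBPδ is induced through STAT3 when the gland involutes, and CHOP is induced downstream of ATF4 under endoplasmic reticulum (ER) and amino acid stress. The long and short forms of C/EBPβ arise in translation from 1 mRNA, so the array cannot tell them apart.

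Both lines came from EPH-4, a non-malignant, spontaneously immortalized mouse mammary epithelial line. EV-50 carried the empty H1-2 vector and shGR-19 the same vector with a short hairpin RNA against GR, and both were stable clones selected with a puromycin marker and grown without serum in DMEM/F-12 with 2 µg/ml puromycin and no added glucocorticoid. Each line is a single clone, so a difference between the lines and a difference between clones cannot be told apart. There were 2 Agilent arrays per line, each labelled with Cy3 from 300 ng RNA, and the 4 arrays shared 1 slide and 1 scan. The labels do not say whether replicates were separate cultures, so p-values measure only the spread between these samples, which may be technical.

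The authors deposited the values in 2 forms, the scanner signal of each array and a table of log2 values, and these disagreed for replicate 1. Scanner values below are log2 signals relative to the 75th percentile on that array, and table values are log2 values relative to the median of that probe over the 4 columns. Over 21173 probes detected on every array, meaning well above background there, the difference between the lines had an SD of 0.23 on the scanner arrays labelled replicate 1 and of 0.51 on those labelled replicate 2, against 0.62 between the EV-50 arrays. In the table the corresponding SD was 0.53 between the lines at replicate 1 and 0.20 between the EV-50 columns. The brightest of 4 Nr3c1 probes, which measure the targeted receptor, read 1.81 and 1.92 on the EV-50 scanner arrays and 1.46 and -0.034 on those of shGR-19. The lines differed at it by -1.94 in the table, by -1.95 between the scanner arrays labelled replicate 2 and by only -0.35 between those labelled replicate 1. All 4 Nr3c1 probes were lower in shGR-19 at both numbers, by differences of -0.35 to -0.20 between the arrays labelled replicate 1 and of -1.95 to -1.47 between those labelled replicate 2. The scanner arrays labelled replicate 1 thus showed far less of the depletion than the table did, and each C/EBP value is given from the table, from all 4 scanner arrays and from each replicate alone.

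With limma, 2827 of 24436 kept probes (11.6%) passed an adjusted p below 0.01 in the table, 5.53% higher and 6.04% lower in shGR-19. Together with a difference of more than 2-fold this left 4.26%, of which 1.87% were higher and 2.39% lower, while 48.4% had an unadjusted p below 0.05. In the scanner files 0 probes passed (0%), and 0.855% had an unadjusted p below 0.05. Of the 9 C/EBP probes 8 were kept, as detected on both arrays of either line, and 6 were detected on all 4 arrays. Of the 8 kept, 6 passed by table values, 4 higher and 2 lower, and 2 also differed by more than 2-fold, both higher, those of Cebpd and Ddit3. Because the members were chosen on this contrast, nothing is read from these counts. With any 1 of the 4 columns left out, or with the replicate number as a block, 0 probes of the whole table passed the p together with the fold.

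The probes that carry the results are 60 bases long. The sequences of 3 are shown because each value rests on its probe and because the family shares its zipper. Cebpb and Cebpg also had other kept probes. The Cebpb and Cebpg probes lie in the stretch that encodes the leucine zipper, at mm9 chr2:167515309-167515368 on the plus strand and chr7:35835477-35835536 on the minus strand. The Ddit3 probe, at mm9 chr10:126732518-126732821 on the plus strand, covers 304 bases of genome for 60 bases of probe and so crosses an intron.
Cebpb: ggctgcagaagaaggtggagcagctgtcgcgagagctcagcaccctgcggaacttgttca
Cebpg: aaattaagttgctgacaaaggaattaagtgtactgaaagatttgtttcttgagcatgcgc
Ddit3: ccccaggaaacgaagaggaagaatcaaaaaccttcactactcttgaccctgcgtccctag
No capitals are used as no motif is marked. Over the 31 pairs of C/EBP probes from different genes the longest stretch shared was 10 bases, so the zipper probes, which target related coding sequence, share only short runs of identical bases.

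The 250 bases before the annotated start of 3 members are shown because the table values of these genes lay in opposite directions, Cebpb lower and Cebpg and Ddit3 higher in shGR-19. The sequences are from RefSeq on GRCm38.p6, at chr10:127290543-127290792 on the plus strand for Ddit3, chr7:35056567-35056816 on the minus strand for Cebpg and chr2:167688665-167688914 on the plus strand for Cebpb. Capitals mark the CCAAT box read on the other strand in Ddit3 and Cebpg (ATTGG) and TGACG or its reverse complement CGTCA in Cebpb.
Ddit3: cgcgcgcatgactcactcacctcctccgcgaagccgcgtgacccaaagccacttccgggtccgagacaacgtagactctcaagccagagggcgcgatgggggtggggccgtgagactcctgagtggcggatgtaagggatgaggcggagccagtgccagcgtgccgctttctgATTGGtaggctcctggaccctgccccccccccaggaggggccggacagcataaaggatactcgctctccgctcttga
Cebpg: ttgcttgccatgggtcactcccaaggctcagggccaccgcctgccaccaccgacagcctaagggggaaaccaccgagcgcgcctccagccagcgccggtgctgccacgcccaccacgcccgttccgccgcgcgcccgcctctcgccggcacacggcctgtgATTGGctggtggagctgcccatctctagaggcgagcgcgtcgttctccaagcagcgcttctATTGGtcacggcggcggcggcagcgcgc
Cebpb: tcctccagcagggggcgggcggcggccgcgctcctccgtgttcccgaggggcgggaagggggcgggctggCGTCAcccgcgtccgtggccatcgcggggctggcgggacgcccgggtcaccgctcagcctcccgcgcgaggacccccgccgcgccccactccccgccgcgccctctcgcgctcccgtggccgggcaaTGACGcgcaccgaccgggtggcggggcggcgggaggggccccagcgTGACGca
Of the 5 members 4 had a promoter entry, and Cebpd had none. In windows of 300 bases, 250 before and 50 after the start, both strands were searched for the C/EBP site TTGCNNAA, the glucocorticoid response element as GNACA and TGTNC with 3 bases between them, the C/EBP-ATF element TGATGNAA, the cAMP response element TGACGTCA and the STAT element TTCNNNGAA. These are found in 10.8%, 0.475%, 3.97%, 1.79% and 8.3% of 32851 promoters, and the 4 windows held 0 matches to them, which says only that these letters are not in these windows. The CCAAT box, found in 37.4% of promoters, stood at -89 to -85 and at -28 to -24 in Cebpg and at -77 to -73 in Ddit3, with positions counted from the start. TGACG, found in 20.8% of promoters, stood 3 times in Cebpb. TATAAA, found in 13.6%, stood at -30 to -25 in Cebpa and at 22 to 27 after the start in Cebpb. CCAAT and TGACG, the second of which also lies within TGACGTCA, were added to the search after the sequences had been seen.

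Cebpd, which encodes the cytokine-inducible C/EBPδ, had the largest difference of the family. Its single probe, at mm9 chr16:15888459-15888518 on the plus strand, had table values of -0.95 and -0.90 in EV-50 and 0.90 and 0.93 in shGR-19. Both shGR-19 columns lay above both EV-50 columns, with means of -0.92 ± 0.035 (SD, n = 2) and 0.92 ± 0.024 (SD, n = 2), and the difference was 1.84 (SE 0.051), or 3.58-fold. On the scanner arrays it read -0.67 and -0.80 in EV-50 and -0.57 and 1.01 in shGR-19. The shGR-19 arrays again lay above the EV-50 arrays, but the array labelled shGR-19 replicate 1 stood only 0.10 above the higher EV-50 array, and the array labelled replicate 2 stood far above the other 3. The scanner difference was 0.96 (SE 0.57) over all arrays, 0.10 between the arrays labelled replicate 1 and 1.81, or 3.51-fold, between those labelled replicate 2. In background-subtracted signal the Cebpd probe read 331, 336 and 347 on the first 3 of these arrays and 1167 on the last.

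Ddit3, which encodes CHOP, was higher in shGR-19 in both sources and at both replicate numbers. Its table values were -0.58 and -0.71 in EV-50 and 0.67 and 0.58 in shGR-19, with means of -0.64 ± 0.093 and 0.62 ± 0.062 (SD, n = 2 each). The columns did not overlap, and the difference was 1.27 (SE 0.075), or 2.41-fold. The scanner values were 1.24 and 1.07 in EV-50 and 1.66 and 2.20 in shGR-19. Here too the lines did not overlap, with a difference of 0.78 (SE 0.28) over all arrays, 0.42 between the arrays labelled replicate 1 and 1.13, or 2.19-fold, between those labelled replicate 2. Among the 6 C/EBP probes detected on all 4 arrays, that of Ddit3 was the one for which the array labelled shGR-19 replicate 1 stood furthest above both EV-50 arrays.

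**Figure D1:**
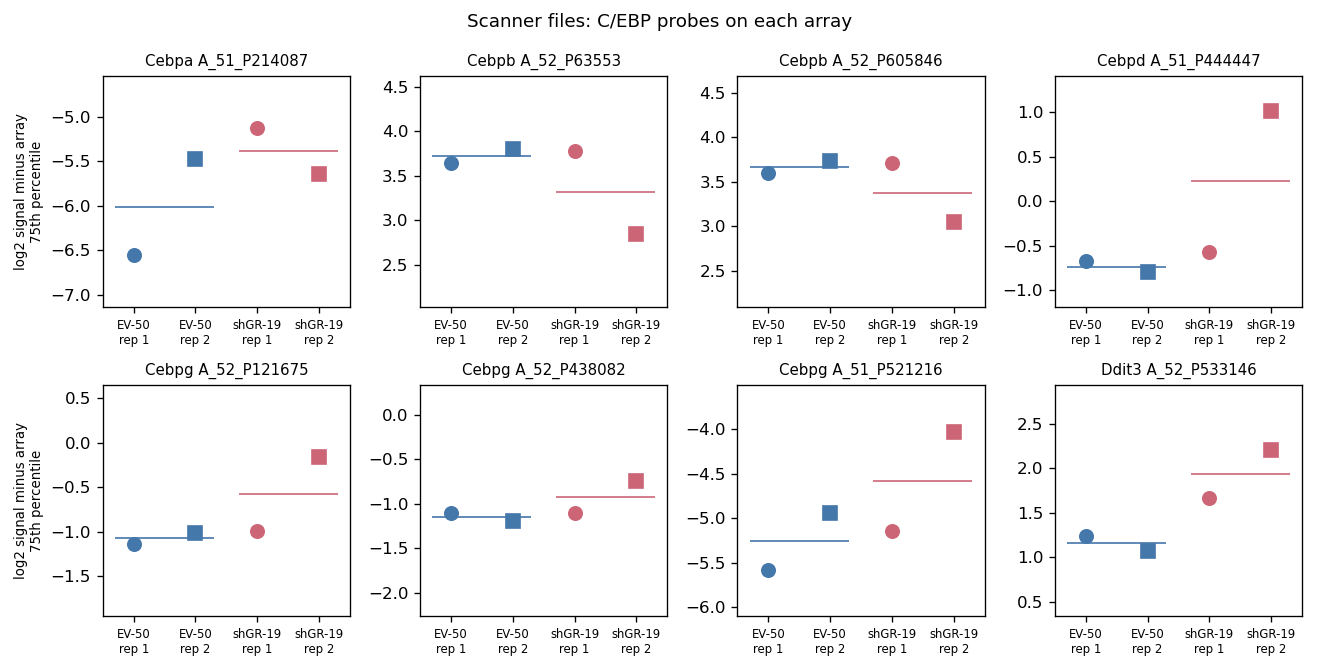
Scanner values of the 8 kept C/EBP probes on each of the 4 arrays, as log2 signal relative to the 75th percentile on that array, with circles for arrays labelled replicate 1, squares for replicate 2 and lines for the mean of each line; each panel spans the same number of log2 units. Cebpd read -0.67, -0.80 and -0.57 on 3 arrays and 1.01 on shGR-19 replicate 2, whereas Ddit3 was higher on both shGR-19 arrays, at 1.66 and 2.20.

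Cebpb, which encodes the C/EBPβ activator of mammary development and of acute phase genes, was the member for which both shGR-19 columns of the table lay below both EV-50 columns. The probe whose sequence is shown above had table values of 0.44 and 0.38 in EV-50 and -0.42 and -0.38 in shGR-19. The difference was -0.81 (SE 0.052), or 1.76-fold lower, and the columns did not overlap. The second Cebpb probe, at mm9 chr2:167515847-167515905, differed by -0.78 (SE 0.065), or 1.71-fold lower, again without overlap. On the scanner arrays the first probe read 3.60 and 3.74 in EV-50 and 3.71 and 3.04 in shGR-19. The lines overlapped, because the array labelled shGR-19 replicate 1 lay between the EV-50 arrays, and only shGR-19 replicate 2 was low. The second probe gave the same order, with 3.65 and 3.80 in EV-50 and 3.78 and 2.85 in shGR-19. Between the arrays labelled replicate 1 the Cebpb probes differed by 0.12 and 0.13, and between those labelled replicate 2 by -0.69 and -0.95. Without shGR-19 replicate 2 the scanner difference turned to 0.047 and 0.057, so in the scanner files the direction for Cebpb rests on that array.

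Cebpg, which encodes the widely expressed partner C/EBPγ, was higher in shGR-19 by all 3 probes, though by different amounts. The zipper probe had table values of -0.26 and -0.21 in EV-50 and 0.22 and 0.21 in shGR-19, a difference of 0.45 (SE 0.049), or 1.37-fold. A probe at mm9 chr7:35832751-35832810 differed by 0.82 (SE 0.067), or 1.77-fold, with table values of -0.48 and -0.37 in EV-50 and 0.37 and 0.44 in shGR-19. The third, at mm9 chr7:35831917-35831976, differed by 0.94 (SE 0.057), or 1.91-fold, and had the table values -0.54, -0.44, 0.44 and 0.45 in the same order. None of the 3 overlapped between the lines in the table. In the scanner files the zipper probe read -1.10 and -1.19 in EV-50 and -1.10 and -0.74 in shGR-19, and the difference between the arrays labelled replicate 1 was only 0.0038. The probe at 35832751 read -1.14, -1.02, -0.998 and -0.17 in the same order, with differences of 0.14 at replicate 1 and 0.85 at replicate 2. The third probe was dim and was well above background on 1 of 2 EV-50 arrays and both shGR-19 arrays, with values of -5.57, -4.94, -5.14 and -4.03 that overlapped between the lines.

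Cebpa, which encodes C/EBPα, the factor of terminal fat and myeloid differentiation, was at or near background. The probe at mm9 chr7:35906517-35906576 was well above background on 0 of 4 arrays, and the probe at mm9 chr7:35905361-35905420 on 1 of 2 EV-50 arrays and on both shGR-19 arrays. The second of these had signals of 5.62 and 13.2 in EV-50 and 14.7 and 11.6 in shGR-19. Its table values were 0.77 and -0.0098 in EV-50 and -0.30 and 0.0098 in shGR-19, so the lines overlapped. The table gave a difference of -0.52 (SE 0.32) and the scanner files one of 0.63 (SE 0.45), which are opposite in sign. No direction is given for Cebpa.

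**Figure D2:**
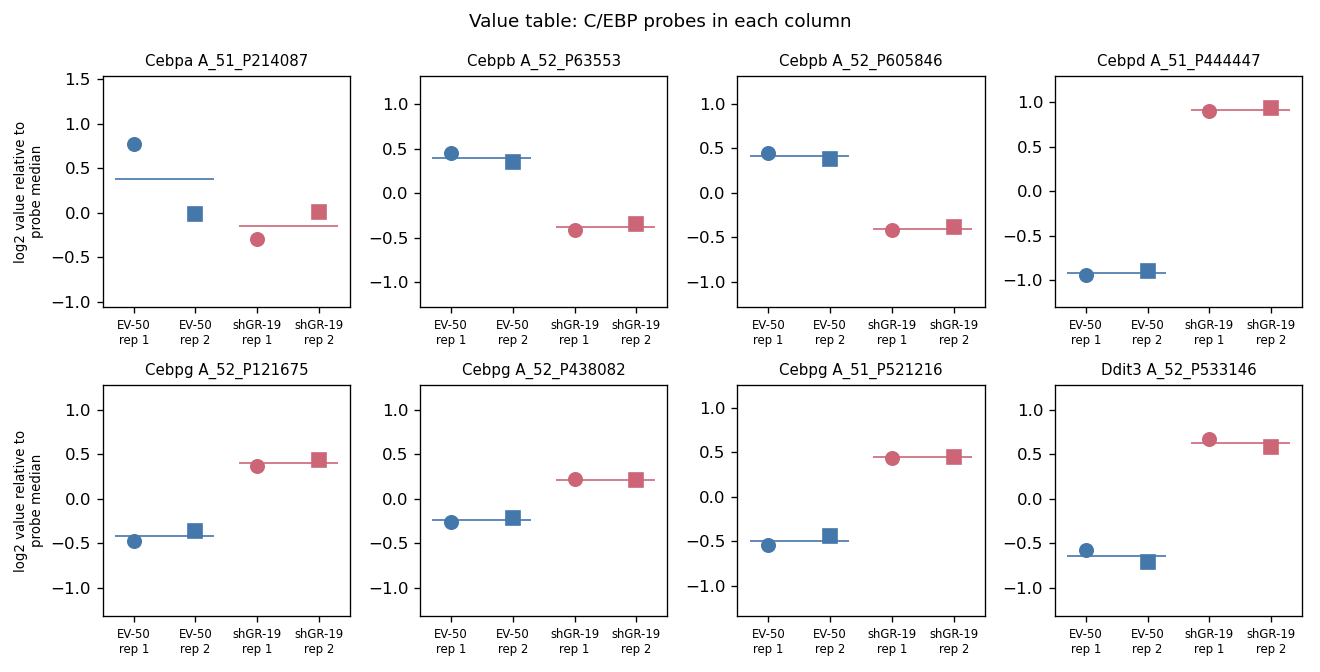
Table values of the 8 kept C/EBP probes in each of the 4 columns, as log2 values relative to the median of the probe, with lines for the mean of each line of cells. In the table Cebpd ran from -0.95 to 0.93 and Ddit3 from -0.71 to 0.67 with the shGR-19 columns on top, the Cebpb probes ran the other way, and Cebpa overlapped.

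Counted over the 8 kept probes, 5 had both shGR-19 columns above both EV-50 columns in the table and 2 had both below, beside 36.6% and 35.3% of all kept probes. In the scanner files 4 had both shGR-19 arrays above, beside 11.7%, and 0 had both below, beside 6.14%. The 4 that stayed apart in the scanner files were the probes of Cebpd and Ddit3 and the 2 brighter probes of Cebpg. The plot of differences by source sets these side by side. Between the scanner arrays labelled replicate 1, 2.46% of kept probes were more than 2-fold higher and 1.11% lower in shGR-19, and of the C/EBP probes only the dim Cebpa probe was past that fold, higher by 1.42. Between those labelled replicate 2, 2.37% were higher and 3.16% lower, and of the C/EBP probes those of Cebpd and Ddit3 were past it, both higher. For the 6 probes detected on all 4 arrays, the table difference lay within 0.2 of the scanner difference between the arrays labelled replicate 2, and apart from Ddit3 the difference between those labelled replicate 1 was between 0.0038 and 0.14.

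**Figure D3:**
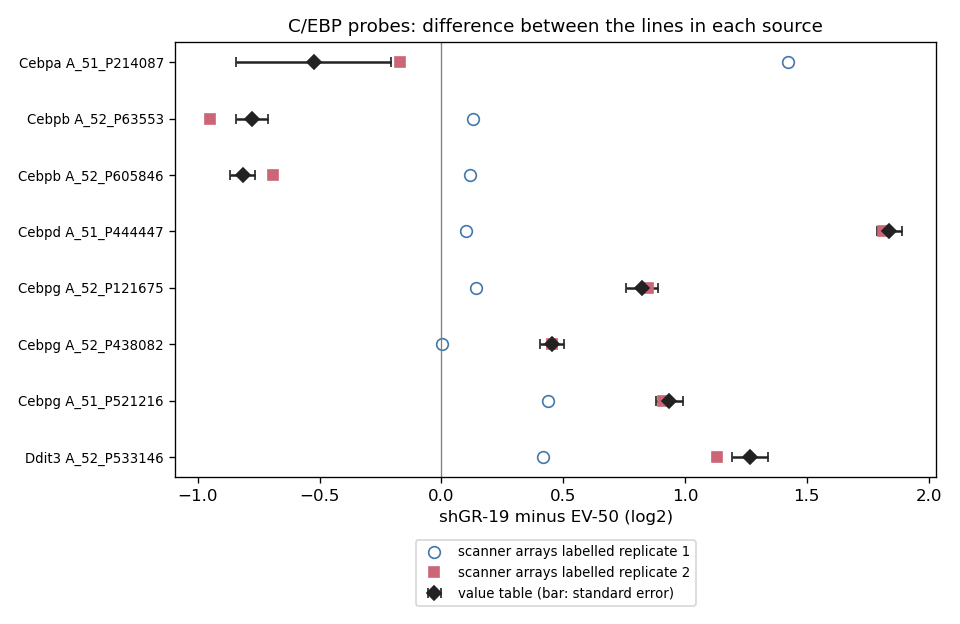
Difference between shGR-19 and EV-50 in log2 units for each kept C/EBP probe, with open circles for the scanner arrays labelled replicate 1, squares for those labelled replicate 2 and diamonds with the SE for the table. For Cebpd the table (1.84) and the replicate 2 arrays (1.81) nearly coincide while the replicate 1 arrays give 0.10, and for the Cebpb probes the replicate 1 arrays give 0.12 and 0.13 against values below 0 from the other sources.

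Genes around the family were then read from lists written from general knowledge, but with earlier results of these data known. Counts and p-values for the lists are therefore a description. Each gene was read by 1 probe, the brightest, with the table as source. Over 16755 genes 1023 passed higher and 1091 lower, and the median difference over all kept probes was 0.0087. In bulk RNA, fewer cells of a type and less RNA per cell cannot be told apart. In the scanner files 0 genes of any list passed.

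The relatives and bZIP partners of the C/EBPs moved in both directions, with 2 of 17 kept genes passing higher and 3 lower and a median of 0.23. Fos, an AP-1 subunit, was higher by 1.21 (SE 0.071, limma adjusted p = 0.0046), and Atf5, a stress-induced relative of ATF4, by 1.06 (SE 0.057, adjusted p = 0.0041). Hlf, a PAR bZIP factor, differed by -2.65 (SE 0.087, adjusted p = 0.0026), although on the scanner arrays it read 0.58 and -2.43 in EV-50 alone. Tef, of the same PAR group, differed by -0.79 (SE 0.058, adjusted p = 0.0061), while its 2 other kept probes did not pass. Batf3, named after its value had been seen, differed by -0.50 (SE 0.045, adjusted p = 0.0081). Atf4, the partner of CHOP and its inducer under stress, did not pass, with a table difference of -0.16 (SE 0.052, adjusted p = 0.096) and scanner values of 3.52 and 3.35 in EV-50 and 3.69 and 3.17 in shGR-19. Cebpe, a myeloid C/EBP, could not be read, because no probe carried this name in the array annotation.

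Of the genes of the ATF4 and CHOP stress pathway, 5 of 24 kept genes passed higher and 2 lower, with a median of 0.21. Most of the list are genes that ATF4 or CHOP is known to induce, but it also holds the upstream kinase genes Eif2ak1, Eif2ak2, Eif2ak3 and Eif2ak4 and Eif2s1, which encodes their substrate. Nupr1, a stress-induced chromatin protein, rose by 1.05 (SE 0.073, adjusted p = 0.0056) and Slc7a5, a subunit of a leucine transporter, by 1.01 (SE 0.060, adjusted p = 0.0047). Ddit4, an inhibitor of mTORC1, the pseudokinase Trib3 and Psat1 of serine synthesis also passed, with differences of 0.56, 0.55 and 0.53, and were named after their values had been seen. Tnfrsf10b, a death receptor that CHOP is known to induce, differed by -0.93 (SE 0.068, adjusted p = 0.0060). Another of its probes differed by -0.95 (adjusted p = 0.0048), and the last by -0.66 without passing. Eif2ak3, 1 of these upstream genes, which encodes the ER stress kinase PERK, differed by -0.58 (SE 0.057, adjusted p = 0.0091). Of the 24 genes 16 were above 0 in the table, 20 between the scanner arrays labelled replicate 1 and 17 between those labelled replicate 2, beside 51.0%, 59.6% and 51.8% of all kept probes. At replicate 1 other lists were also mostly above 0, with 10 of 13 reference genes, 10 of 13 epithelial markers and 14 of 18 upstream signals. The ER list, with 9 of 19, and the acute phase list, with 6 of 15, were not. The 20 of 24 is therefore not particular to the stress pathway. Trib3 differed by 0.50 at replicate 1 and by 0.48 at replicate 2, and 15 of the 24 genes were higher at both numbers.

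**Figure D4:**
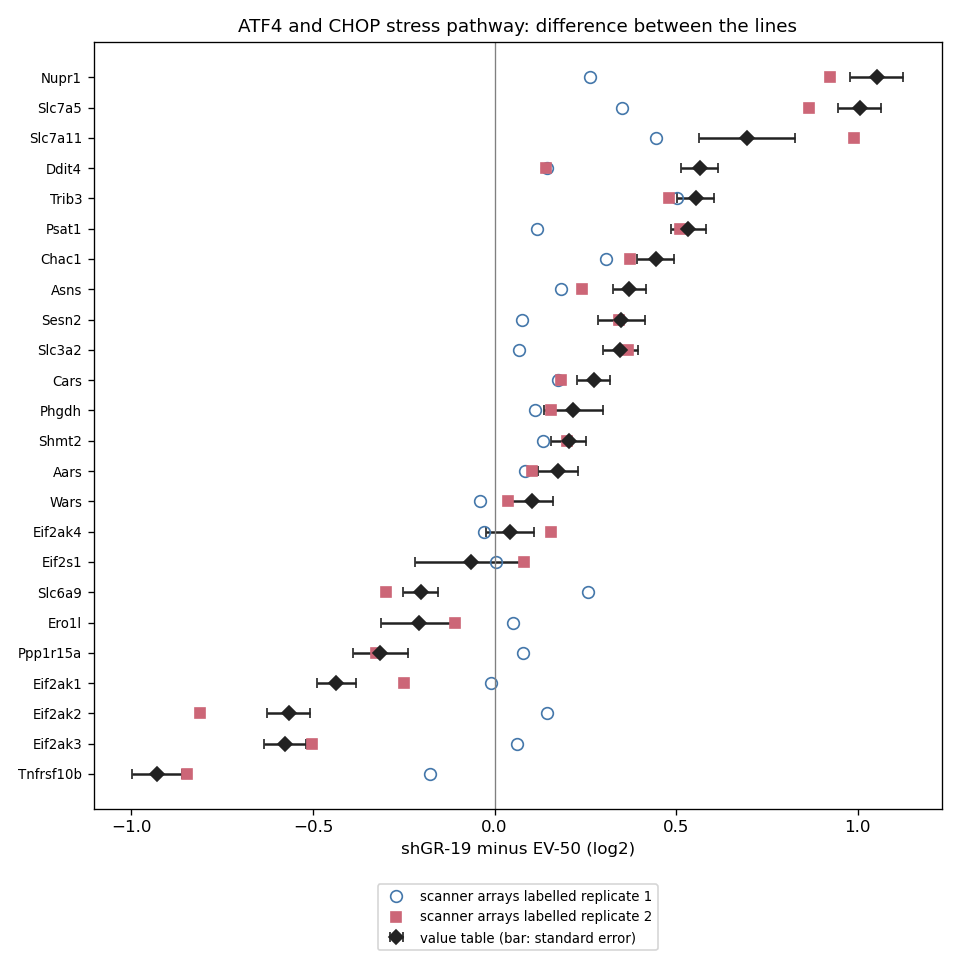
Difference between shGR-19 and EV-50 in log2 units for the 24 kept genes of the ATF4 and CHOP stress pathway, the upstream Eif2ak kinases and Eif2s1 included, with open circles for scanner arrays labelled replicate 1, squares for replicate 2 and diamonds with the SE for the table. Nupr1 (1.05) and Slc7a5 (1.01) stand at the top and Tnfrsf10b (-0.93) at the bottom. Of the 24 open circles 20 lie above 0, beside 10 of 13 reference genes at that number.

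Of the ER chaperones and other genes of the unfolded protein response, 0 of 19 passed higher and 2 lower, with a median of -0.0023. The disulfide isomerase gene Pdia6 differed by -1.43 (SE 0.048, adjusted p = 0.0026), and 2 other probes by -1.41 (adjusted p = 0.0026) and -1.69 (adjusted p = 0.0036), whereas the last of its 4 probes differed by 0.68 (adjusted p = 0.0056). Edem1, which helps to clear misfolded proteins, differed by -0.52 (SE 0.046, adjusted p = 0.0080), while its 2 other probes did not pass. Dnajc3, named after its values had been seen, did not pass by its brightest probe (0.43, adjusted p = 0.038). Of its other probes 2 passed higher, by 0.58 (adjusted p = 0.0076) and 0.53 (adjusted p = 0.0074), and the last (0.45) did not pass.

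Acute phase and inflammatory genes known as C/EBPβ and C/EBPδ targets were mostly lower in shGR-19 in the table, with 10 of 15 kept genes passing lower, 1 higher and a median of -1.49. On the scanner arrays the median difference was -0.095 at replicate 1 and -1.44 at replicate 2, with 6 and 4 of the 15 genes above 0. Hp, which encodes the haemoglobin scavenger haptoglobin, differed by -5.21 (SE 0.045, adjusted p = 0.0011), or 37.0-fold lower. On the scanner arrays Hp read 4.98 and 6.38 in EV-50 and 4.88 and 1.01 in shGR-19, so that it differed by -0.095 at replicate 1 and by -5.37 at replicate 2. The chemokine genes Ccl2 and Cxcl5 differed by -3.84 (SE 0.076, adjusted p = 0.0018) and -2.74 (SE 0.11, adjusted p = 0.0030), and Lbp, which carries bacterial lipopolysaccharide, by -3.02 (SE 0.047, adjusted p = 0.0013). On the scanner arrays the EV-50 samples alone were far apart for both chemokine genes, with 2.02 and -1.77 for Ccl2 and 4.68 and 1.45 for Cxcl5, and the arrays labelled replicate 1 differed by only -0.31 and -0.13. Lbp differed there by -0.14 at replicate 1 and by -2.99 at replicate 2. Ptgs2, which encodes cyclooxygenase-2, was the gene that passed higher, by 1.14 (SE 0.049, adjusted p = 0.0033), and was named after its value had been seen. Cebpb and Cebpd, whose products are known to act on such genes, themselves differed in opposite directions in the table, by -0.81 and 1.84.

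Of the signals upstream of the family 2 of 18 kept genes passed higher and 2 lower, with a median of -0.012. Socs3, a feedback inhibitor induced by STAT3, was higher by 0.71 (SE 0.055, adjusted p = 0.0065), and Trib2, a pseudokinase that promotes degradation of C/EBPα, by 1.05 (SE 0.063, adjusted p = 0.0047), though its other probe (0.91) did not pass. Id2, an inhibitor of basic helix-loop-helix factors, differed by -1.85 (SE 0.087, adjusted p = 0.0036) and the cytokine gene Tnf by -1.01 (SE 0.077, adjusted p = 0.0063). Another Id2 probe differed by -1.81 (adjusted p = 0.0032), and the last by -1.13 without passing (adjusted p = 0.043). Of the mammary differentiation genes 3 of 9 passed higher and 0 lower, with a median of 0.26. These were the EGF receptor ligand Areg (0.99, SE 0.050, adjusted p = 0.0039), the casein Csn3 (0.71, SE 0.049, adjusted p = 0.0056) and the luminal factor Gata3 (0.67, SE 0.051, adjusted p = 0.0063). Between the scanner arrays labelled replicate 1 they differed by -0.044, 0.36 and -0.043, and between those labelled replicate 2 by 0.89, 0.66 and 0.51. Of the genes of fat cell formation 1 of 14 passed higher, the factor Ebf1 (1.18, SE 0.11, adjusted p = 0.0083), and 1 lower, the fatty acid ligase Acsl1 (-0.64, SE 0.052, adjusted p = 0.0070). On the scanner arrays Ebf1 differed by 0.012 at replicate 1 and 1.11 at replicate 2, and Acsl1 by 0.064 and -0.62.

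**Figure D5:**
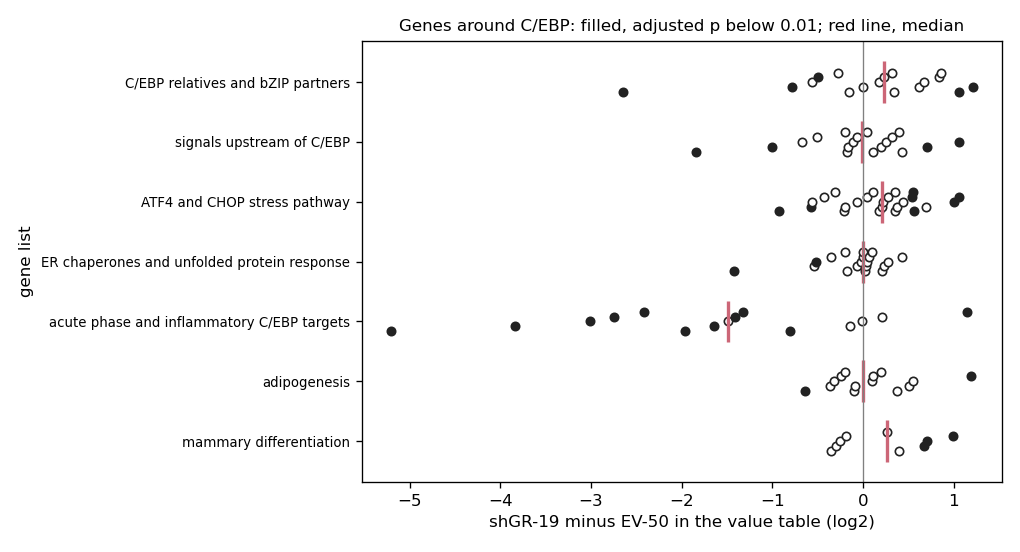
Table difference between shGR-19 and EV-50 in log2 units for the kept genes of 7 lists around the C/EBPs, filled where the limma adjusted p was below 0.01, with a red line at the median of each list. The acute phase and inflammatory list is centred at -1.49, with Hp at -5.21 and Ptgs2 at 1.14, and the medians of the other lists lie between -0.012 and 0.26.

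Markers of the cell type and of other cells were read in the same way. Of the mammary epithelial markers 13 of 15 were kept, with 2 passing lower, Krt14 and Krt17, and 0 higher. Their summed levels relative to the 75th percentile were 998 and 938 in EV-50 and 1031 and 814 in shGR-19. Ehf, named after its values had been seen, differed by -3.20 without passing (adjusted p = 0.029). Its other probe passed lower, at -1.88 (adjusted p = 0.0090). Of the fibroblast and mesenchymal markers 8 of 14 were kept, with summed levels of 27.5 and 53.7 in EV-50 and 27.4 and 85.6 in shGR-19, and 4 passed higher, Col1a2 (3.27), Pdgfrb (2.03), Vim (1.82) and Pdgfra (1.16), and 0 lower. The immune markers, with 8 of 14 kept, summed to 0.998 and 0.813 in EV-50 and to 0.985 and 0.858 in shGR-19, with 1 passing in each direction, and of the adipocyte and endothelial markers 3 of 9 were kept and 0 passed. Of 13 reference genes 12 did not pass and B2m differed by -0.62. Epcam, Cdh1 and Krt8, which define epithelium, were detected on all 4 arrays, while Ptprc of leukocytes and Col1a1, Col3a1, Dcn and Lum of fibroblasts were not kept. The 4 mesenchymal markers that passed read highest on the scanner array labelled shGR-19 replicate 2, as Cebpd and Ddit3 did, and their part in the values of the C/EBP genes was not tested.

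The probes whose 4 table values lay closest to those of each member, by the Euclidean distance after subtracting the mean of the probe, were taken over 19198 probes of other named genes detected on all arrays. For Cebpd these were Eya2 at 0.038, Fam65c at 0.047 and Pbp2 at 0.053, and 31 probes lay within 0.2. For Ddit3 they were Slc16a3 at 0.031, Ypel1 at 0.039 and Cib2 at 0.040, with 122 within 0.2. For Cebpb they were H2-Q5 at 0.015, Timeless at 0.022 and Bin1 at 0.023, with 615 within 0.2, and for Cebpg Magi2 at 0.0067, Macrod1 at 0.023 and Thap2 at 0.033, with 444. For Cebpa, Mrgprg was closest at 0.16. On the scanner arrays the closest were Rhog at 0.062 for Cebpd, Trib2 at 0.11 for Ddit3, Cnot4 at 0.036 for Cebpb and Ncs1 at 0.050 for Cebpg. By this measure 9 probes lay within 0.2 of Cebpd on the scanner arrays, 8 of Ddit3, 388 of Cebpb, 160 of Cebpg and 0 of the dim Cebpa, whose closest was Olfr218 at 0.33.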

How the data were processed

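RNA from 2 EV-50 and 2 shGR-19 samples was measured on 4 Agilent one-colour arrays, 1 per sample. The authors deposited the scanner output, in which the intensity of each spot was background-subtracted by Agilent Feature Extraction 10.5.1.1 and not scaled between arrays, with flags for outliers and for spots well above background. A second deposited file holds log2 values that came from GeneSpring and were centred on the median of each probe. Its column medians were 0.076 and 0.038 in EV-50 and -0.056 and -0.063 in shGR-19, and its scaling between arrays was not given in the sources used here.

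Control and outlier spots (139, 87, 74 and 80 on the 4 arrays) were left out, 0 spots were saturated, spots of a probe were averaged, and the log2 processed signal was set relative to the 75th percentile on its array (528, 584, 516 and 579). Precision is limited by how few arrays there are. A probe was kept if either line had it well above background on both its arrays, less 7 with a missing value. Both sources were fitted with lmFit and eBayes of limma 3.58.1 in R 4.3.3, with Benjamini-Hochberg adjustment over the 24436 kept probes and calls at an adjusted p below 0.01, with and without more than a 2-fold difference. Only the limma fit was tested on simulated data.

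The members and gene lists were chosen with earlier results of these data known. All member probes are named, and of each list at most the 4 genes with the largest table difference among those that passed, besides Atf4 and Hp, others being said to be named after their values were seen. The nearest patterns name up to 3 genes per member. Probe positions are on mm9, as per the file headers. The alternatives were normexp correction with an offset of 50, quantile normalization, a percentile over detected probes, other filters, a trended and robust prior (statmod 1.5.0), a replicate block, fits without each array, the methods' t-test and an adjusted p below 0.05. Batches could not be fitted with 1 slide and 1 scan.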

Additional observations from a re-analysis of the deposited data

How the results depend on the processing

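In the scanner files 0 probes passed both the p and the fold. The alternatives also gave 0, except the methods' t-test without adjustment, with 6 (2 higher, 4 lower), and the table itself, with 1042. In the table the 1042 probes (457 higher, 585 lower) became 956 with only probes detected on every array, 1202 with the intensity trend, 1289 at an adjusted p below 0.05 and 958 with the methods' t-test without adjustment. They became 43 (15 higher, 28 lower) with all probes kept, 15 (4 higher, 11 lower) with the methods' t-test after Benjamini-Hochberg adjustment, and 0 with the replicate block. Leaving out each column in turn gave 0 to 0, and the gene lists also gave 0 calls without any 1 column; the cause was not tested. Replicate numbers were not taken as pairs in the main fits, and the replicate block was the alternative that used them. Over 21173 probes, the difference between replicates in EV-50 correlated with that in shGR-19 at 0.65 in the scanner files. In the table this correlation was 0.11. The scanner SEs come from fits without the block and so include any effect of the replicate number. The counts of stress pathway genes, 5 higher and 2 lower, became 8 and 4 with only probes detected on every array, 12 and 6 with the intensity trend, and 0 and 0 with all probes kept, where the acute phase genes that passed lower went from 10 to 2.

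Leaving out 1 array moved the scanner difference between 0.17 and 1.75 for Cebpd and between 0.51 and 1.05 for Ddit3. In the table the same step moved it between 1.81 and 1.86 for Cebpd, 1.20 and 1.33 for Ddit3, and -0.84 and -0.79 for the Cebpb probe whose sequence is shown. Normexp correction turned the Cebpa scanner difference to -0.019. Signal over background limits the Cebpa values and the third Cebpg probe.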
